A study of Mus musculus with 6 samples.

Results

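A set of 10 genes that respond to body or tissue temperature were followed in sorted Paneth cells (PCs) after tumour necrosis factor (TNF). The set held 2 cold-inducible genes, Rbm3 and Cirbp, and 8 heat-shock genes, Hspa1a, Hspa1b, Hspa8, Hsph1, Dnajb1, Hspb1, Hsp90aa1 and Hspd1. These 10 were found by Ensembl identifier among the 55414 gene rows of the count table, and all 10 had a row. They were selected on temperature response and with the TNF and PBS levels of these same libraries in view, so their differences between the groups are given as a description. The question put to them was whether cold-inducible and heat-shock genes move apart after TNF.

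The mice were C57BL/6J and all carried the IFNAR1 KO genotype, which removes a chain of the receptor for type I interferons, so that the PBS controls carried it too and no receptor-competent mouse was compared. They had received an injection of either PBS (3 mice) or TNF (3 mice). Small intestine was taken 15 h later, PCs were purified on a cell sorter, and RNA from each mouse gave 1 single-end library. The sources used here do not give dose, sex, age or body temperature.

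RBM3 and CIRBP are small glycine-rich RNA-binding proteins. Their transcripts accumulate when mammalian cells or tissues cool below normal body temperature, and both proteins bind messenger RNAs and influence translation, splicing and polyadenylation. Heat-shock genes work in the opposite range: when proteins unfold, heat shock factor 1 (HSF1) binds heat shock elements in their promoters and drives chaperones that refold, hold or hand on client proteins. TNF given systemically to mice is known to lower body temperature, and PCs carry a heavy load of secreted protein that is folded in the endoplasmic reticulum (ER).

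The libraries held 12747484 to 17039511 counts. Levels are given in CPM, the count of a gene relative to all counts of its library, with library sizes corrected by trimmed means of M-values (TMM). Lyz1, the lysozyme that defines PCs, was at 134153 to 226165 CPM in every library. The 10 PC markers together were at 224704 to 274515 CPM in PBS, against 177539 to 341601 CPM in TNF, and Lyz1 made up most of that sum. Their median log2 ratio to the PBS mean was 0.20, -0.76 and -0.49 in TNF replicates 1 to 3. Single markers went both ways. Nupr1 was at 188 to 289 CPM in PBS, against 156, 975 and 925 CPM in TNF. Clps was at 1231 to 2341 CPM in PBS, against 2172, 260 and 467 CPM in TNF. TNF replicate 1 lay beside the PBS libraries on the first principal component of all genes, at -39.3 against -28.7 to -35.8 for PBS, whereas TNF replicates 2 and 3 lay at 63.0 and 73.1. It stayed in the TNF group, as its label says, and results it touched are also given without it. It was singled out on these same data, so p-values and counts of genes without it are given as a description. In bulk RNA of this kind, fewer cells of a type and less RNA per cell cannot be told apart.

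Markers of other cells also differed between libraries. The 10 stem and transit-amplifying markers summed to 2340 to 2956 CPM in PBS, 4379 CPM in TNF replicate 1, and 478 and 507 CPM in TNF replicates 2 and 3. A single gene made up most of that sum in PBS and in TNF replicate 1. The median log2 ratio of those 10 to the PBS mean was 0.11, -1.32 and -1.23 in TNF replicates 1 to 3. None of those 10 was at 0 throughout. The 12 enterocyte markers summed to 516 to 555 CPM in PBS, against 285 to 409 CPM in TNF. Vil1, at 185 to 324 CPM, was the largest part of that sum in every library. For the 9 enterocyte markers with enough counts to be tested, the median log2 ratio was -0.63, -1.56 and -1.56 in TNF replicates 1 to 3. The 9 goblet cell markers summed to 12460 to 13749 CPM in PBS, against 7990 to 15898 CPM in TNF. The 10 tuft cell markers spread widely within both groups, from 482 to 1713 CPM in PBS and from 608 to 1191 CPM in TNF. Immune cells left little trace: the 14 immune markers summed to 22.1 to 54.6 CPM in PBS, against 36.3 to 45.2 CPM in TNF, and Cd3g, Cd8a, Gzmb and Jchain were among those at 0 in all 6 libraries. The part of these shifts in cell markers in the results that follow was not tested.

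The edgeR quasi-likelihood test found 0 of 13026 genes at an adjusted p under 0.05 over the 6 libraries (0%). It gave an unadjusted p under 0.05 for 1596 genes (12.3% of the 13026). Among these, 1075 were higher in TNF, which is 8.25% of the 13026. Scaling by library totals alone lowered the median log2 fold change of all genes to -0.11 and turned this split to 540 higher and 731 lower. With no filter on low counts it called 690 of 23434 genes (2.94%). DESeq2 called 242 of 11741 genes (2.06%) and limma-voom called 0. Without TNF replicate 1, edgeR called 1980 of 13660 genes (14.5%). Of the 10 members, 8 had enough counts to be tested, and 0 of these 8 passed in the edgeR fit over 6 libraries.

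Promoters of members are shown first, and were searched for the element through which HSF1 acts. RefSeq promoters, running from 250 bases before to 50 after a start and tabulated on GRCm38.p6, were at hand for 7 members. Rbm3, Hspa8 and Hsp90aa1 had no entry. Each of these windows was found once, without a mismatch, on GRCm39, and positions are given on that build. The search was for GAANNTTC, a pair of inverted GAA units that reads the same on both strands, and for the 3-unit element GAANNTTCNNGAA with its reverse TTCNNGAANNTTC, which contains the shorter one. Matches are in capitals below. The Hspa1a (chr17:35191133-35191332, minus strand) and Hspb1 (chr5:135916573-135916759, plus strand) stretches are set beside each other because both genes carry the pair and only the former had counts in TNF, and Hspa1b (chr17:35178215-35178414, minus strand) shows how alike the 2 Hspa1 genes are.
Hspa1a: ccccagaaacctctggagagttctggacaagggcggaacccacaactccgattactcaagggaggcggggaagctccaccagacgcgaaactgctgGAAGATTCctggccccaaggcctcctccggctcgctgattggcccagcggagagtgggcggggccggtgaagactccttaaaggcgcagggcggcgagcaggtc
Hspa1b: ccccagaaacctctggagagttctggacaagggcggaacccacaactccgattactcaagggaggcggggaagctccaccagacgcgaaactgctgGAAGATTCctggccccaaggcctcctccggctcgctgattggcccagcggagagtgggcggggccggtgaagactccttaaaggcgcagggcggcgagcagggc
Hspb1: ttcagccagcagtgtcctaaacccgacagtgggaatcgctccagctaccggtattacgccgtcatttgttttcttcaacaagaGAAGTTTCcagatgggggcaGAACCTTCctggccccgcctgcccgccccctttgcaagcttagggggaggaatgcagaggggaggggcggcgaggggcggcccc

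Hspa1a and Hspa1b were identical at 247 of the 250 bases before their starts and carried the pair at the same place, from 104 to 97 bases before the start. Hspb1 carried it at 2 places, from 117 to 110 and from 97 to 90 bases before its start. The next stretches are those of Cirbp (chr10:80003473-80003611, plus strand) and Dnajb1 (chr8:84334604-84334803, plus strand), a cold-inducible and a heat-shock gene whose mean levels were higher in TNF and whose windows held neither form.
Cirbp: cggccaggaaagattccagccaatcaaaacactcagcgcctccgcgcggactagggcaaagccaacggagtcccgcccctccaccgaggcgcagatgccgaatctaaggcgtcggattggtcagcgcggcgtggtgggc
Dnajb1: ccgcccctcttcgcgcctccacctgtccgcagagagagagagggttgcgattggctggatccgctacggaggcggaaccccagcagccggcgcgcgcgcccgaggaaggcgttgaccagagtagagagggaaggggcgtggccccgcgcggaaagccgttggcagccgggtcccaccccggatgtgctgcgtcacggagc

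The 3-unit element was found in Hspd1 and Hsph1, and 30 bases around it are shown for Hspd1 (chr1:55127212-55127241, minus strand, before the second RefSeq start) and Hsph1 (chr5:149559744-149559773, minus strand, after the second RefSeq start), 2 members whose levels overlapped between the groups.
Hspd1: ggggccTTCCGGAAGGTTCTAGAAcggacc
Hsph1: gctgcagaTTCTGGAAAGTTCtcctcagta

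Thus 5 of the 6 heat-shock genes with a RefSeq window held the 2-unit element, against 9.04% of 27025 genes, and 2 held the 3-unit element, against 0.662%. The only cold-inducible gene with a window, Cirbp, held neither. Hspe1, the partner of Hspd1 that is transcribed from the other strand, also held the 3-unit element. A match is a run of letters and was not tested as a binding site.

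**Figure D1:**
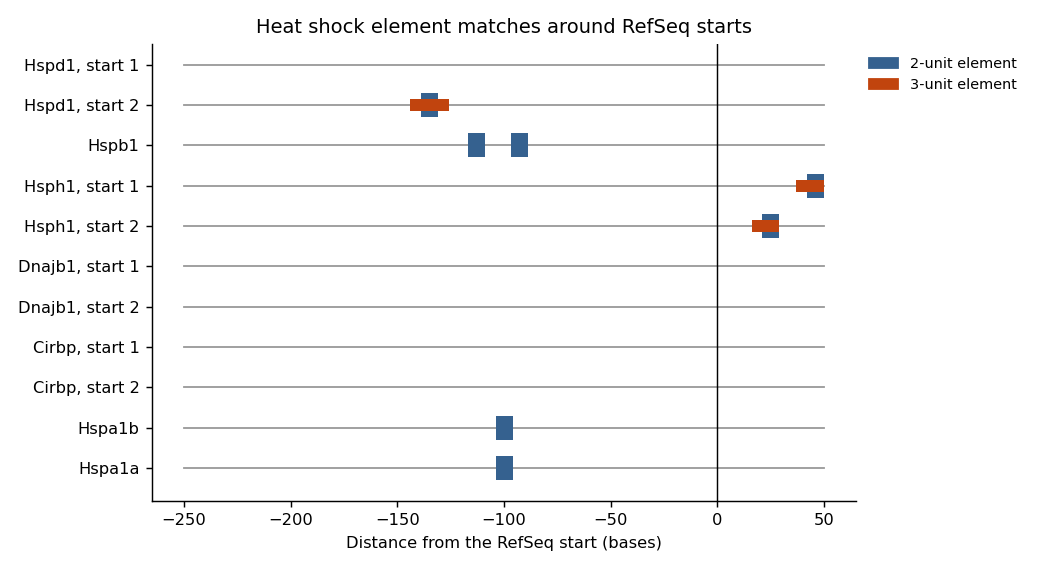
Positions of 2-unit (blue) and 3-unit (orange) heat shock element matches in RefSeq windows of 7 members, 1 line for each RefSeq start; the x axis is the distance from the start in bases. Hspa1a and Hspa1b carry the pair at the same distance, Hspb1 carries it at 2 places, and the lines of Cirbp and Dnajb1 are empty.

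Rbm3 (ENSMUSG00000031167, chromosome X, 8004213 to 8012119, GRCm39), the more strongly cold-induced of the pair in most cells, was higher in TNF. It was at 56.1, 74.2 and 57.5 CPM in PBS replicates 1 to 3 and at 142, 175 and 288 CPM in TNF replicates 1 to 3. Every TNF library lay above every PBS library, TNF replicate 1 among them. The group means were 62.6 ± 10.1 and 202 ± 76.6 CPM (SD, n = 3), a 3.23-fold difference (edgeR log2 fold change 1.69 with an SE of 0.30, adjusted p 0.27). TNF replicate 1 alone was 2.28-fold above the PBS mean, and only 158 of 13026 genes had a larger log2 difference between that library and PBS. Without it the log2 fold change was 1.91 (edgeR adjusted p 0.000655), and DESeq2 gave an adjusted p of 5.78e-05 over all 6 libraries. An antisense gene, Rbm3os, lies on the opposite strand, but it averaged 0.235 CPM.

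Cirbp (ENSMUSG00000045193, chromosome 10, 79997069 to 80008626), which encodes the cold-inducible RNA-binding protein, behaved differently in the library that stood apart. Its levels were 14.2, 14.0 and 12.9 CPM in PBS, against 14.2, 48.4 and 40.3 CPM in TNF. TNF replicate 1 was thus at the PBS level, the other TNF libraries were far above it, and the groups overlapped. The edgeR log2 fold change was 1.33 with an SE of 0.39 (adjusted p 0.285) over 6 libraries and 1.71 (SE 0.20, adjusted p 0.000294) without TNF replicate 1. In TNF replicates 2 and 3 together, Cirbp was 3.24-fold and Rbm3 3.70-fold above the PBS mean.

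**Figure D2:**
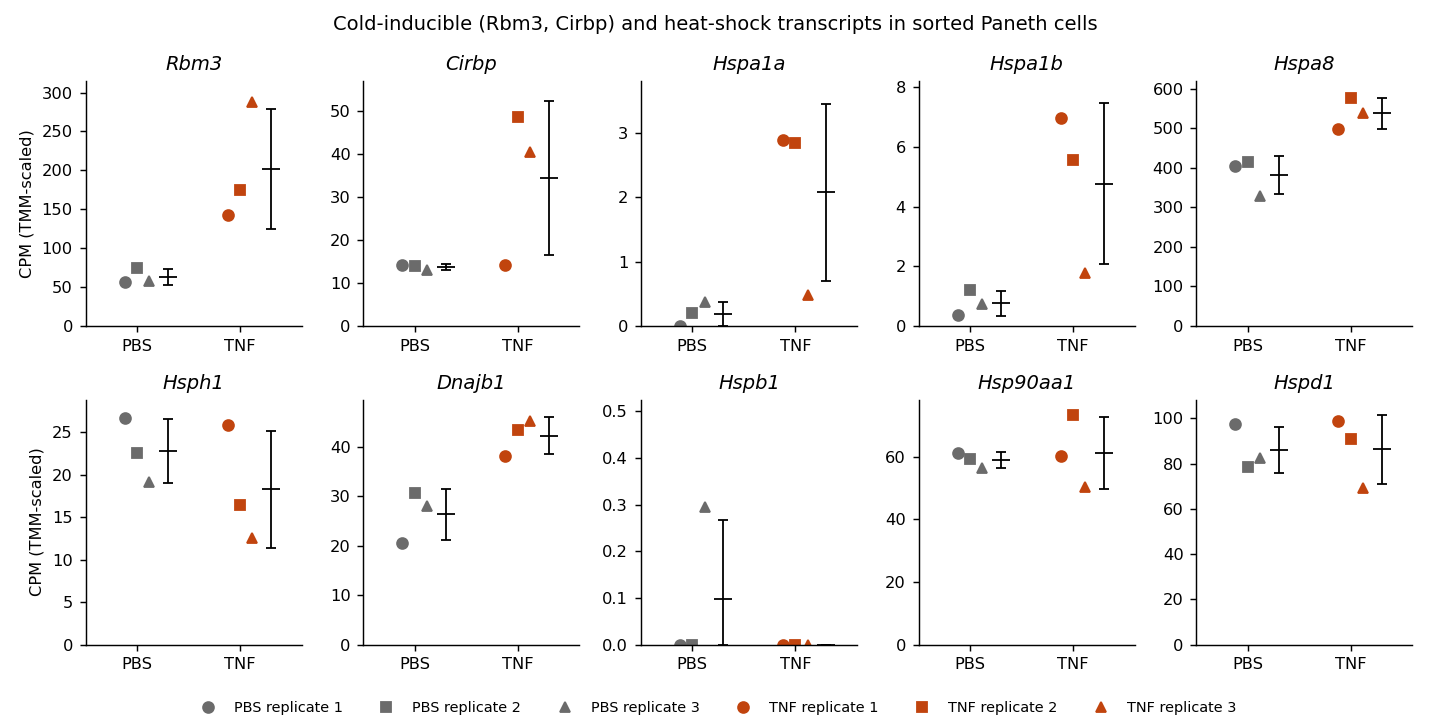
TMM-scaled CPM of the 10 genes in each library, with a linear axis from 0 for each gene; grey, PBS; orange, TNF; circle, square and triangle, replicates 1, 2 and 3; bar, mean with SD (n = 3), drawn down to 0 at most. Rbm3, Hspa8 and Dnajb1 lie higher in all TNF libraries, Cirbp in 2 of 3, and Hspb1 was counted in 1 PBS library only.

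Among the heat-shock genes, the inducible HSP70 pair had the largest fold differences, from a very low base. Hspa1a (ENSMUSG00000091971, chromosome 17, 35188166 to 35191132) and Hspa1b (ENSMUSG00000090877, chromosome 17, 35175412 to 35178214) encode HSP70 proteins that are almost the same and are the classical readout of HSF1 activity. Hspa1a had 0, 3 and 5 counts in PBS and 34, 58 and 6 counts in TNF. TNF replicates 1 and 2 were therefore clearly above PBS, while TNF replicate 3 was 1 count above the highest PBS library. The count of 0 in PBS replicate 1 allows up to 0.207 CPM of the unscaled total. Hspa1a did not pass the filter on low counts and was tested without that filter only, where its edgeR adjusted p was 0.0383.

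Hspa1b was at 0.361, 1.20 and 0.735 CPM in PBS and at 6.97, 5.58 and 1.77 CPM in TNF. The groups did not overlap, and the order of the TNF libraries was the reverse of that for Rbm3, with replicate 1 highest and replicate 3 lowest; with library totals alone replicate 3 was still lowest, at 1.62 CPM, and replicate 2 highest, at 6.69 CPM. Only 5 of 13026 genes differed more between TNF replicate 1 and PBS on the log2 scale. The edgeR log2 fold change was 2.62 with an SE of 0.67 (adjusted p 0.27), and it was 2.28 (adjusted p 0.0569) without TNF replicate 1. DESeq2 gave an adjusted p of 0.0136.

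Reads of Hspa1a and Hspa1b are hard to assign, since 47.1% of 100-base stretches of the Hspa1a transcript occur unchanged in Hspa1b and 49.9% of those of Hspa1b occur in Hspa1a. The sources used here do not give how such reads were treated, so each gene alone is uncertain and their sum was fitted as well. The sum was 0.361, 1.40 and 1.10 CPM in PBS, against 9.86, 8.41 and 2.25 CPM in TNF. All TNF libraries were again above all PBS libraries. The log2 fold change of the sum was 2.83 (SE 0.68, edgeR adjusted p 0.268), and 2.50 (adjusted p 0.0323) without TNF replicate 1.

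Hspa8 (ENSMUSG00000015656, chromosome 9, 40711630 to 40731039) encodes HSC70, the constitutive HSP70 of the cytosol that folds new proteins and uncoats clathrin vesicles. It was at 404, 414 and 328 CPM in PBS and at 498, 577 and 540 CPM in TNF. The groups did not overlap, although the difference was modest, at 1.41-fold (edgeR log2 fold change 0.50 with an SE of 0.24, adjusted p 0.439). TNF replicate 1 was 1.31-fold above the PBS mean, close to the others. The separation of Hspa8 rested on TMM: scaled by library totals alone, the groups overlapped and the log2 fold change was 0.41.

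Dnajb1 (ENSMUSG00000005483, chromosome 8, 84334811 to 84339820) encodes HSP40, the J-domain partner that loads clients onto HSP70. It was at 20.6, 30.6 and 28.0 CPM in PBS and at 38.2, 43.4 and 45.3 CPM in TNF. Here too all TNF libraries were above all PBS libraries. The means were 26.4 ± 5.16 and 42.3 ± 3.68 CPM (edgeR log2 fold change 0.68 with an SE of 0.22, adjusted p 0.297), and without TNF replicate 1 Dnajb1 passed (log2 fold change 0.77, adjusted p 0.034). Scaled by library totals alone, the log2 fold change was 0.57 over 6 libraries and the groups overlapped, as PBS replicate 2 (33.8 CPM) then exceeded TNF replicate 1 (30.4 CPM).

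Hsph1 (ENSMUSG00000029657, chromosome 5, 149537636 to 149560156) encodes HSP105, which exchanges nucleotide on HSP70, and it was the only tested member whose value lay below 0 in this fit. It was at 26.7, 22.5 and 19.1 CPM in PBS and at 25.9, 16.4 and 12.5 CPM in TNF. TNF replicate 1 sat inside the PBS range, and the other TNF libraries lay below it. The edgeR log2 fold change was -0.32 with an SE of 0.29 (adjusted p 0.693), and -0.63 (SE 0.24, adjusted p 0.107) without TNF replicate 1, so it passed in neither fit.

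The remaining heat-shock genes showed no separation. Hsp90aa1 (ENSMUSG00000021270, chromosome 12, 110656842 to 110669166), the stress-inducible form of cytosolic HSP90, was at 61.3, 59.2 and 56.3 CPM in PBS and at 60.2, 73.4 and 50.4 CPM in TNF. The TNF libraries lay on both sides of the PBS libraries, and the edgeR log2 fold change was 0.06 with an SE of 0.21 (adjusted p 0.93). Hspd1 (ENSMUSG00000025980, chromosome 1, 55116989 to 55171038), the mitochondrial chaperonin HSP60, was at 97.6, 78.4 and 82.4 CPM in PBS and at 98.8, 90.8 and 69.3 CPM in TNF. Its groups overlapped as well (edgeR log2 fold change 0.00 with an SE of 0.22, adjusted p 0.998). Hspe1 and Mob4 overlap Hspd1 on the opposite strand at a mean of 42.1 and 73.0 CPM, and as the use of strand in counting is not given, the level of Hspd1 is uncertain.

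Hspb1 (ENSMUSG00000004951, chromosome 5, 135916760 to 135918417) encodes HSP27, a small heat-shock protein that holds unfolded clients. It was at 0 in 5 libraries and had 4 counts in PBS replicate 3. In the libraries at 0 this allows up to 0.176 to 0.222 CPM of the unscaled total. No difference was detectable at this depth, although its promoter held the element at 2 places.

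Counted over the set, 4 of the 8 tested members had every TNF library above every PBS library (Rbm3, Hspa1b, Hspa8 and Dnajb1), against 9.07% of all tested genes, and 0 had every TNF library below every PBS library, against 7.82%. With library totals alone, the 4 became Rbm3 and Hspa1b, and 433 of 13026 genes were above and 1463 below. Without TNF replicate 1, Rbm3, Cirbp and Dnajb1 passed as higher in TNF, against 9.10% of genes, and 0 passed as lower, against 5.40%. DESeq2 called Rbm3 and Hspa1b, and edgeR with no filter on low counts called Rbm3, Cirbp, Hspa1a and Hspa1b. The set was proposed from this contrast, so nothing further is read from these counts.

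**Figure D3:**
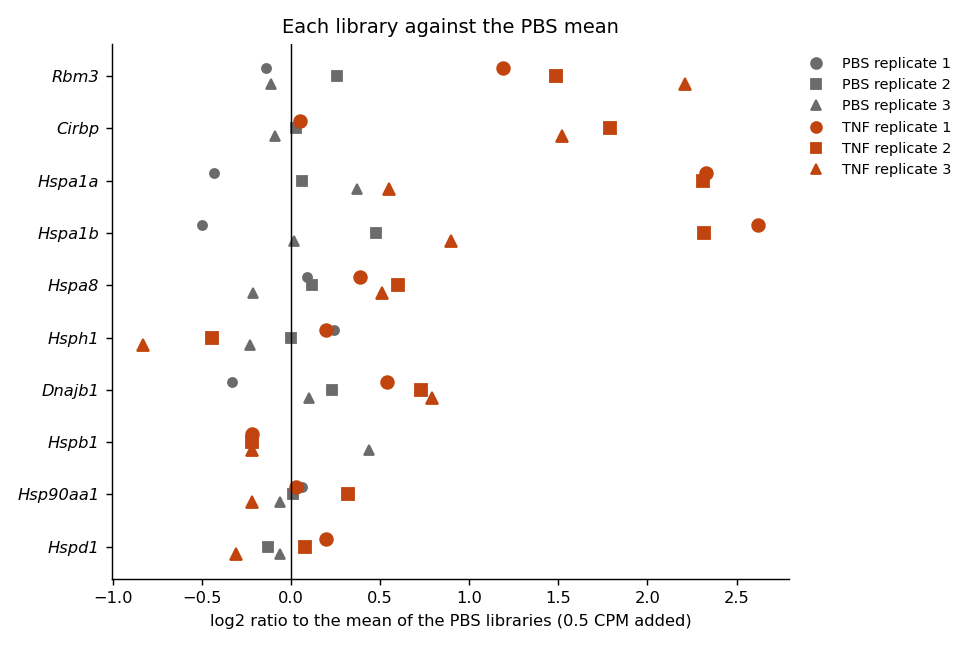
log2 ratio of each library to the mean of the 3 PBS libraries for the 10 genes, after adding 0.5 CPM; colours and shapes as in the plot of CPM. TNF replicate 1 (orange circle) is at 0.05 for Cirbp but at 1.19 for Rbm3 and 2.62 for Hspa1b, and Hsph1 is at -0.83 in TNF replicate 3.

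Both sets were then compared within libraries. The mean log2 CPM of Rbm3 and Cirbp was 4.83, 5.02 and 4.77 in PBS and 5.50, 6.53 and 6.75 in TNF. That of the 8 heat-shock genes was 2.95, 3.29 and 3.40 in PBS and 4.13, 4.08 and 3.43 in TNF. Both means were higher in TNF than in PBS, by 1.39 for the cold-inducible genes and by 0.66 for the heat-shock genes. Hspa1a and Hspa1b, at 0 to 18 counts per PBS library, weighed as much in the latter mean as Hspa8. Their log2 ratios to the PBS mean were 2.33 and 2.62 in TNF replicate 1, the largest of the 8 in that library. The median log2 fold change of the 6 tested heat-shock genes was lower, at 0.28. With Hspa1a and Hspa1b counted as 1 gene, the heat-shock difference was 0.41, so these means did not move in opposite directions. Hsp90aa1, Hspd1 and Hsph1 had log2 fold changes of 0.06, 0.00 and -0.32, with SEs of 0.21, 0.22 and 0.29. None of them was separated from 0 in the fit over 6 libraries. No TNF library lay among the PBS libraries for either mean on this scale. For the heat-shock genes, TNF replicate 3 did so with library totals alone (3.32 against 2.91 to 3.49 in PBS). It also did so with a prior count of 0.5 in place of 2 (3.13 against 2.41 to 3.29 in PBS).

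The gap between the sets, as log2 CPM of cold-inducible minus heat-shock genes, was 1.88, 1.73 and 1.37 in PBS and 1.37, 2.45 and 3.33 in TNF. TNF replicate 1 had the gap of PBS replicate 3, and the other TNF libraries had wider gaps than any PBS library. The group means were 1.66 ± 0.26 and 2.38 ± 0.98 (SD, n = 3), so the widening of 0.72 was smaller than the spread between TNF libraries. It was 1.23 without TNF replicate 1 and 0.25 without TNF replicate 3. Counting Hspa1a and Hspa1b as 1 gene gave 0.97.

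**Figure D4:**
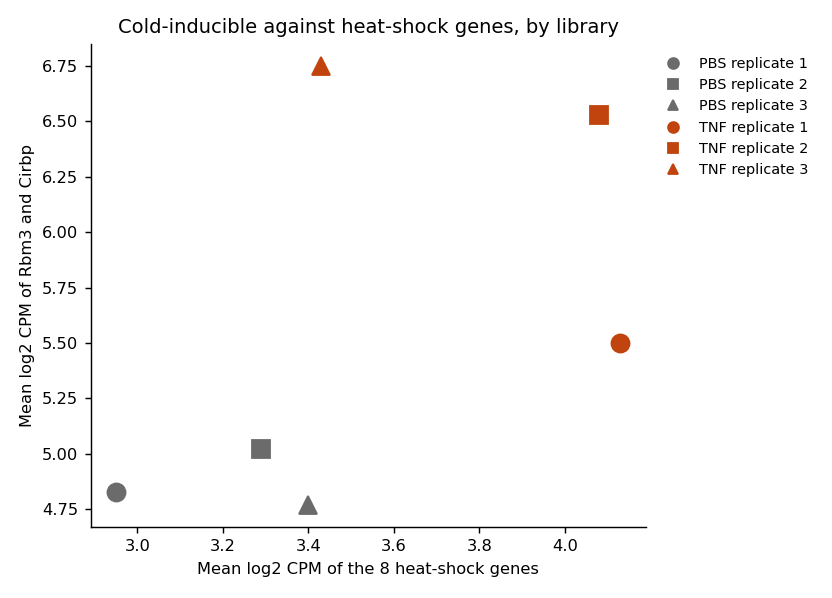
Mean log2 CPM of Rbm3 and Cirbp (y axis) against that of the 8 heat-shock genes (x axis), 1 point for each library; colours and shapes as in the plot of CPM. PBS libraries lie at the lower left, TNF replicates 1 and 2 are farthest right, and TNF replicate 3 is highest but only just right of PBS replicate 3.

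Levels of different genes were compared per length, as CPM per kilobase of the GENCODE canonical transcript (RPKM). In PBS the order was Hspa8 at 159 ± 19.6, Hspd1 at 35.6 ± 4.17, Hsp90aa1 at 16.7 ± 0.716, Rbm3 at 12.5 ± 2.01, Cirbp at 10.4 ± 0.554, Dnajb1 at 7.47 ± 1.46 and Hsph1 at 3.68 ± 0.615 RPKM, with the Hspa1 genes and Hspb1 under 1 RPKM. As neighbours in that order, Rbm3 and Cirbp differed by about the SD of Rbm3. In TNF, Rbm3 at 40.3 ± 15.3 RPKM had moved beside Hspd1 at 35.6 ± 6.31 RPKM, from which its spread did not separate it, and Cirbp at 25.9 ± 13.5 RPKM was not separated from Hsp90aa1 at 17.4 ± 3.27 RPKM. The canonical Rbm3 transcript is 5007 bases long, and a shorter one would place Rbm3 higher.

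The regulators of both programmes were examined next, from lists written from general knowledge of chaperones. Hsf1, the master factor of the heat-shock response, was lower in TNF, at 14.4, 14.6 and 13.1 CPM in PBS, against 8.84, 8.02 and 8.21 CPM in TNF. The groups did not overlap and TNF replicate 1 lay with the other TNF libraries (edgeR log2 fold change -0.75 with an SE of 0.23, adjusted p 0.294). Hsbp1, a small binding partner that restrains HSF1, was at 36.6, 37.4 and 54.2 CPM in PBS, against 52.7 to 79.3 CPM in TNF (edgeR log2 fold change 0.55 with an SE of 0.25, adjusted p 0.413), and Hsf2 had a log2 fold change of -0.09. Of the 5 tested heat shock factors and partners, 3 were higher, 2 were lower and 0 passed.

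Temperature-linked splicing genes differed little. Clk1, a kinase that controls splicing factors and is active at lower temperature, was at 39.3 to 66.5 CPM in PBS, against 34.6 to 63.7 CPM in TNF (log2 fold change -0.11). Rtn3, whose messenger RNA is bound by RBM3 in neurons, had a log2 fold change of -0.07, and Hnrnph1 one of -0.33. All 4 genes of that list were lower in the 6-library fit, with a median log2 fold change of -0.09, and 0 passed.

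Among HSP70, HSP110 and HSP90 genes of the cytosol outside the set, Hsp90ab1, the constitutive HSP90, was at 337 to 486 CPM in PBS, against 461 to 668 CPM in TNF (edgeR log2 fold change 0.47 with an SE of 0.27, adjusted p 0.509). Hspa4, an HSP110 relative of Hsph1, had a log2 fold change of -0.18, and 0 of the 5 tested genes passed. Of 12 other cytosolic J-domain genes, 10 were higher and 2 lower in TNF, with a median of 0.25. Dnajc5, the cysteine string protein of secretory vesicles, was the 1 that passed without TNF replicate 1, at 40.8, 44.1 and 47.6 CPM in PBS, against 35.4, 70.9 and 68.1 CPM in TNF (log2 fold change 0.67, adjusted p 0.0313). Small heat-shock proteins were mostly silent, with 6 of 9 other genes at 0 in all libraries and Cryab at 0.433 CPM or less.

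The cytosolic chaperonin TRiC folds actin and tubulin. All 8 of its subunits had a positive log2 fold change, with a median of 0.31 against 0.00 over all tested genes, of which 6508 of 13026 were higher. Cct5, for example, was at 137, 124 and 122 CPM in PBS, against 178, 162 and 156 CPM in TNF (log2 fold change 0.37, edgeR adjusted p 0.482). With library totals alone, all 8 stayed positive at a median of 0.22, against 5420 of 13026 genes higher. For 5 of 8 subunits the TNF libraries were all above the PBS libraries, against 9.07% of all tested genes. With library totals alone this held for 2 of 8, against 433 of 13026 genes. None of the 8 passed in the edgeR fits with or without TNF replicate 1.

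Cochaperones of HSP70 and HSP90 went both ways, with 10 of 18 higher and 8 lower and a median of 0.08. Bag1, a nucleotide exchange factor of HSP70, was at 90.8, 82.8 and 75.6 CPM in PBS, against 117, 133 and 127 CPM in TNF (edgeR log2 fold change 0.60 with an SE of 0.20, adjusted p 0.308), with no overlap. Fkbp5, an HSP90 partner best known as a glucocorticoid receptor target, was at 8.82 to 12 CPM in PBS and at 9.18, 64.5 and 40.3 CPM in TNF. As with Cirbp, TNF replicate 1 had the PBS level of Fkbp5, and the log2 fold change was 2.37 (adjusted p 0.000154) without that library. Chordc1, an HSP90 partner with the 3-unit element in its promoter window, was lower without TNF replicate 1 (log2 fold change -0.96, adjusted p 0.038) and was at 36.4 CPM in TNF replicate 1 against 12.8 and 13.1 CPM in the others. In mitochondria, 5 of 10 chaperone and protease genes were higher and 5 lower (median 0.03), and Htra2, a protease of the intermembrane space, passed as higher without TNF replicate 1 (log2 fold change 1.15, adjusted p 0.0114).

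The ER relatives of the heat-shock genes went the other way from Hspa8, Dnajb1 and TRiC. Of 11 tested ER genes, 10 were lower in TNF, with a median log2 fold change of -0.58 (-0.78, again 10 of 11 lower, with library totals alone). Hspa5, the ER HSP70 known as BiP, was at 993, 809 and 794 CPM in PBS, against 752, 441 and 447 CPM in TNF (edgeR log2 fold change -0.66 with an SE of 0.30, adjusted p 0.425). Hsp90b1, the ER HSP90 known as GRP94, was at 417, 306 and 336 CPM in PBS, against 239, 219 and 143 CPM in TNF (edgeR log2 fold change -0.82 with an SE of 0.27, adjusted p 0.311). In both, all TNF libraries lay below all PBS libraries, with TNF replicate 1 nearest to PBS.

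Without TNF replicate 1 the ER median was -0.94, and 7 of the 11 passed as lower, against 5.40% of all genes, among them Hspa5 (adjusted p 0.0269), Hsp90b1 (adjusted p 0.0367), Hspa13 (log2 fold change -1.14, adjusted p 0.00356) and Sdf2l1 (log2 fold change -1.13, adjusted p 0.00832). Dnajc10, a disulfide reductase of the ER, was the exception, at 212 to 278 CPM in PBS, against 216, 331 and 324 CPM in TNF (log2 fold change 0.23). The whole list summed to 2283 to 3180 CPM in PBS and to 2115, 1586 and 1478 CPM in TNF replicates 1 to 3. The sums of stem, enterocyte and goblet markers given above were also below their PBS ranges in TNF replicates 2 and 3. The part of these markers in the ER values was not tested.

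**Figure D5:**
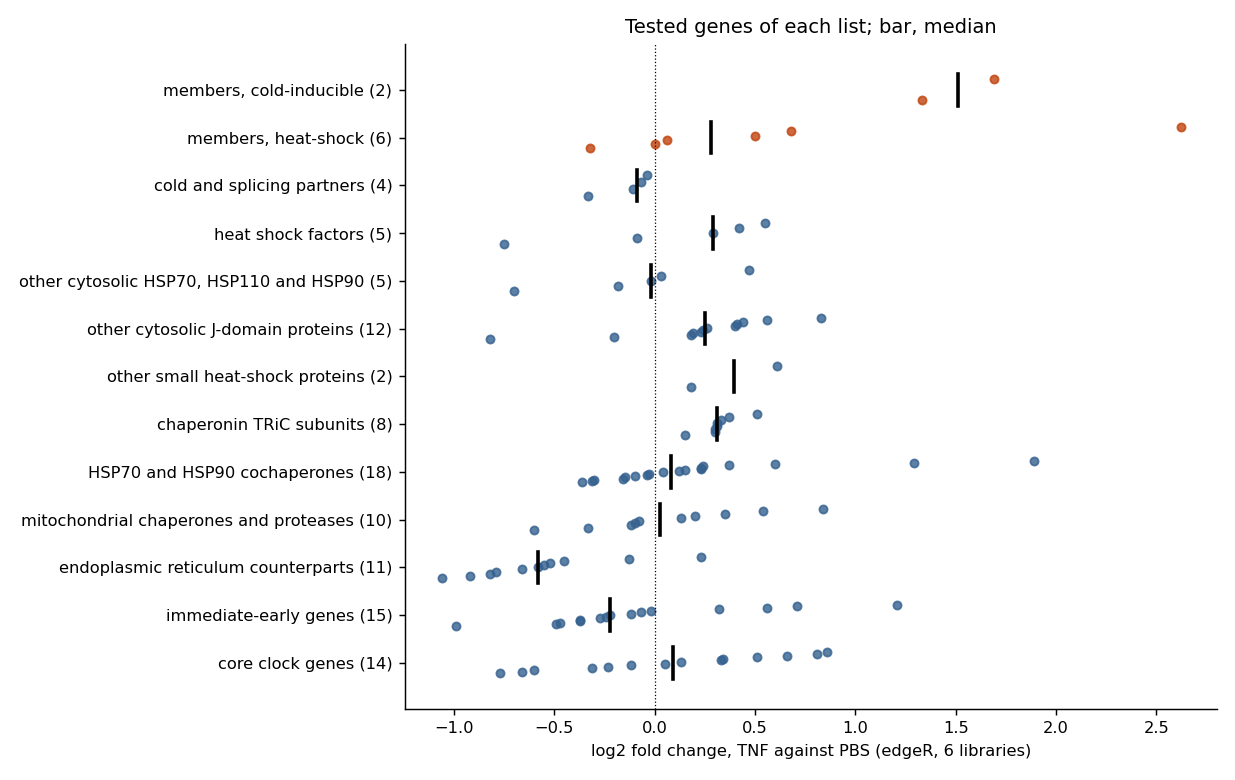
edgeR log2 fold change of TNF against PBS over 6 libraries for each tested gene, by list, with the number of tested genes in parentheses; orange, the 2 sets of members; blue, other lists; bar, median. Hspa1b lies farthest right at 2.62, Fkbp5 of the cochaperones is at 1.89 beside Rbm3 at 1.69 and Cirbp at 1.33, all TRiC subunits are above 0, and 10 of 11 endoplasmic reticulum genes are below 0.

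Immediate-early and clock genes were read for signs of handling and time of day. Of 15 immediate-early genes 11 were lower and 4 higher in TNF (median -0.22). The sign of that median rested on PBS replicate 2, without which it was 0.26. Jun, an AP-1 subunit that also responds to tissue dissociation, was at 70.3, 119 and 63.3 CPM in PBS, against 139, 88.0 and 89.4 CPM in TNF (edgeR log2 fold change 0.32 with an SE of 0.30, adjusted p 0.695). Like Hspa1b on the TMM scale, Jun was highest in TNF replicate 1 among the TNF libraries. The median log2 ratio of the 15 genes to the PBS mean was 0.41 in TNF replicate 1. It was -0.14 and -0.33 in TNF replicates 2 and 3. The part of dissociation in the Hspa1 values was not tested. Cirbp is known to follow the daily rhythm of body temperature. Of 14 tested clock genes 8 were higher and 6 lower (median 0.09). For 2 of them every TNF library lay above every PBS library, against 9.07% of all tested genes. For another 2 every TNF library lay below, against 7.82%. With library totals alone these were 0 and 2, against 433 and 1463 of 13026 genes. Clock itself was at 44.6 to 50.5 CPM in PBS, against 48.8 to 53.5 CPM in TNF. Tef, a clock output factor, passed as higher without TNF replicate 1 (log2 fold change 1.08, edgeR adjusted p 0.037). Such counts of directions do not give a time of day, and a difference in it was not tested.

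The genes whose log2 CPM followed Rbm3 most closely over the 6 libraries, among 9772 genes with a mean log2 CPM of at least 2, were Kpna3 (Pearson r = 0.999), Tomm5 (0.994), Atp23 (0.988), Kcne3 (0.988) and Snx1 (0.987). On the TMM scale they had the same order of TNF libraries at smaller amplitude: Kcne3, a potassium channel subunit, was at 43.0 to 49.2 CPM in PBS, against 75.2, 88.7 and 132 CPM in TNF. Among the members, the correlation with Rbm3 was 0.92 for Dnajb1, 0.887 for Hspa8, 0.817 for Cirbp and -0.704 for Hsph1. For the sum of Hspa1a and Hspa1b, the closest genes were Med14 (0.998), Iba57 (0.964), Dnajb4 (0.959), E2f5 (0.956) and Galk1 (0.954). Dnajb4, another J-domain partner of HSP70, was at 8.87 to 10.3 CPM in PBS, against 15.6, 13.8 and 12.3 CPM in TNF, the order that Hspa1b had on the same scale. With 6 points that fall into 2 groups, such values are a description of likeness in these libraries only.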

How the data were processed

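A single library was made for each of 3 PBS and 3 TNF mice from RNA of sorted PCs. The authors deposited raw read counts per Ensembl gene, in which each of the 6 columns matched 1 label. The submitters' processing notes name FastQC, Trimmomatic 0.39, STAR 2.7.10a, DESeq2 and mm39; the sources used here give no counting tool, annotation release, strand setting or treatment of shared reads.

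Symbols and positions came from GENCODE vM39 (GRCm39, 1-based): 54749 of 55414 identifiers matched, and unmatched ones held 0.0193% of counts. In R 4.3.3, edgeR 4.0.16 (filterByExpr with minimum count 10 and total 15, TMM factors) tested TNF against PBS in 13026 genes with 99.8% of counts, two-sided, by its quasi-likelihood test with Benjamini-Hochberg adjustment, and a gene passed at an adjusted p under 0.05. SE was obtained by dividing the log2 fold change by the root of its F statistic. The procedure was tested on simulated data. Set means used log2 CPM with a prior count of 2. A count of 0 was taken to allow 3 counts, and such limits cover counting error only. p-values measure the spread between mice.

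The members and gene lists were chosen with earlier results of these data known. Named were the members; in each other list, the 3 genes of highest mean CPM and up to 4 that passed or, where none did, up to 2 in each direction with the smallest p without TNF replicate 1; and the 5 genes most correlated with Rbm3 and with summed Hspa1a and Hspa1b. Not all are printed, a gene of the lists is not reported here, and Dnajb4 is named as one of the latter. Alternatives were relative log expression (RLE) and library-size scaling, no low-count filter, TMM without genes above 1% of counts, DESeq2 1.42.0, a block for the replicate number, limma-voom (limma 3.58.1), a threshold of 0.01, a prior count of 0.5 and leaving out each library.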

Additional observations from a re-analysis of the deposited data

How the results depend on the processing

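The number of genes past 5% was 0 over 6 libraries with TMM, RLE or library-size scaling, with TMM without genes above 1% of counts, with limma-voom and at 1%. It was 690 with no low-count filter and 242 with DESeq2, and ranged from 0 to 1980 when 1 library was left out, 1980 being the value without TNF replicate 1. The widening of the gap between cold-inducible and heat-shock genes was positive under every alternative, from 0.25 to 1.23 when 1 library was left out and from 0.67 to 0.97 otherwise. Over 13 alternatives, log2 fold changes kept their sign for Rbm3 (1.35 to 1.91), Cirbp (0.96 to 1.71), Hspa1b (2.28 to 3.10), Hspa8 (0.35 to 0.57), Hsph1 (-0.63 to -0.10) and Dnajb1 (0.53 to 0.79). Adjusted p ranged from 2e-06 to 0.854 for Rbm3, from 0.000294 to 0.897 for Cirbp and from 0.00572 to 0.854 for Hspa1b. Near 0, the sign of Hsp90aa1 turned to -0.02 with library-size scaling, and leaving out 1 library gave -0.12 to 0.19, below 0 when PBS replicate 3 (-0.02) or TNF replicate 2 was absent. That of Hspd1 turned with RLE, DESeq2 and limma-voom (each -0.01), no low-count filter (-0.03), library-size scaling (-0.10), TMM without genes above 1% of counts (-0.04), and for 4 of the 6 libraries when left out (range -0.09 to 0.14, with -0.06 and -0.07 between); the cause was not tested. With library-size scaling the median log2 fold change over all genes was -0.11. The same replicate number did not pair PBS and TNF libraries, whose deviations correlated at -0.013, -0.075 and 0.031; with the replicate block 0 genes passed, and Hspd1 was at -0.01. At these depths, Hspa1a and Hspb1 were too low for the low-count filter.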
